A study of Mus musculus with 384 samples.

Results

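The genes described here are 10 immediate early response genes, Fos, Fosb, Jun, Junb, Jund, Egr1, Ier2, Atf3, Dusp1 and Zfp36, measured in single cells of mouse kidney. They were chosen by gene name in the deposited count tables, each name belonged to 1 Ensembl gene, and all 10 of the 40594 genes shared by both tables passed the filter on low levels. Immediate early genes are switched on within minutes of a stimulus by kinases and transcription factors that are already in the cell, so no new protein has to be made before they are transcribed. Many of their products are transcription factors, chiefly the FOS and JUN proteins that pair to form AP-1, and others are inhibitors that shut the same response down. The warm enzymatic dissociation used to free cells from tissue is known to induce them, and handling and the state of a cell in the kidney cannot be told apart in these plates.

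The cells came from kidneys of mice aged 8 weeks and were sorted into 96-well plates, each well becoming 1 library (FACS-seq). Each well name includes UUO, an abbreviation left unexplained in the labels, and no strain, genotype or animal is named. By its title the series concerns monocytes as a source of myofibroblasts in kidney fibrosis. Cells positive for PDGFRB, a receptor tyrosine kinase on pericytes and fibroblasts, and also for CD45, a surface phosphatase of leukocytes (PDGFRB+CD45+, here CD45+), filled 1 plate in each of 2 batches, and cells positive for PDGFRB without CD45 (PDGFRB+CD45-, here CD45-) filled 1 plate in each batch. All 4 plates went through the same written protocol of mincing, enzyme digestion with Liberase TL and sorting, and no undissociated kidney was analysed here. With 1 plate for each gate and batch and no animal named, each plate counts as 1 sample, no p-value was computed, and the only replicate check of a difference between gates is its repeat in the other batch.

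After wells under 10000 reads or 500 genes were left out, 92 and 90 CD45+ wells and 93 and 93 CD45- wells of batches 1 and 2 remained. The plates held 26513530 and 28506906 reads on genes (CD45+) and 29367926 and 31778475 (CD45-), and CD45+ wells had fewer genes with a read, with medians of 2448.5 and 2711 against 3707 and 3572. Ptprc, which encodes CD45, followed the sort at 469 and 303 CPM in the CD45+ plates, against 0.136 and 0.976 CPM in the CD45- plates. Pdgfrb did not, at 0.113 and 5.73 CPM in the CD45+ plates, where 3 of 92 and 6 of 90 wells had a read, against 294 and 219.6 CPM in the CD45- plates. The 6 leukocyte markers summed to 28044 and 23762 CPM in the CD45+ plates and to 151 and 426 CPM in the CD45- plates, so a difference between gates is also one between leukocyte-rich and leukocyte-poor wells. The gate and the kind of cell cannot be told apart.

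Levels below are CPM, the counts of a gene scaled to a common total of reads, from reads summed over the kept wells of a plate. They are compared between plates for 1 gene at a time, never between genes, because they are not scaled to gene length. A gene is called higher or lower where the ratio of CPM + 1 reached 4-fold in the same direction in both batches. A summed level is an average over wells, so fewer cells with a transcript and less transcript per cell cannot be told apart in it, and the wells themselves are described further on.

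All 10 genes together made up 5022 and 7796 CPM of the CD45+ plates of batches 1 and 2, against 1203 and 1981 CPM of the CD45- plates, a ratio of 4.18 and 3.94. By the 4-fold rule Atf3, Dusp1 and Zfp36 were higher in CD45+ and 0 genes were lower. Over the 12882 genes with at least 1 CPM on average, 4.33% were higher in CD45+ and 12.9% were lower. At a 2-fold limit, 6 of the 10 genes were higher and 0 lower, against 7.41% and 22.1% of all genes, the additions being Fos, Junb and Ier2. The median log2 ratio of the 10 genes was 2.44 in batch 1 and 2.00 in batch 2, beside -0.39 and -0.56 over all genes. The ratio was above 0 in both batches for 8 of the 10 genes and for 19.03% of all genes.

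**Figure D1:**
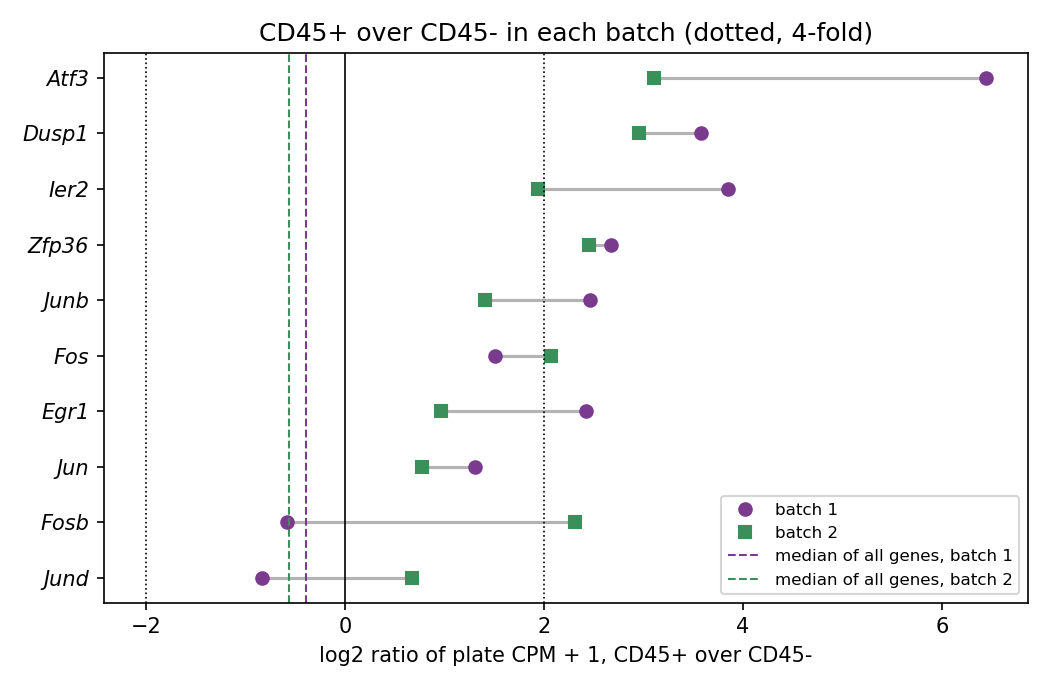
Log2 ratio of plate CPM + 1, CD45+ over CD45-, for each of the 10 genes, with 1 point for each batch. Dotted lines mark 4-fold, dashed lines the median of all genes (-0.39 and -0.56). Atf3, Dusp1 and Zfp36 lie past 4-fold in both batches, and the points of Fosb and Jund fall on opposite sides of 0.

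Among the AP-1 genes, Fos (ENSMUSG00000021250), the partner that needs a JUN protein to bind DNA, reached 1615 and 3312 CPM in both CD45+ plates, against 566 and 788 CPM in the CD45- plates. Both CD45+ plates lay above both CD45- plates, and the log2 ratios of 1.51 and 2.07 stopped short of the 4-fold rule in batch 1. Fosb (ENSMUSG00000003545), a close relative, had 27.2 and 67.7 CPM in CD45+ plates, against 41.2 and 12.8 CPM in CD45- plates. Its log2 ratios were -0.58 and 2.31, so the gates overlapped and the batches differed in sign. A single CD45+ well of batch 1, replicate 90, held 48.3% of that plate's Fosb reads, and without it the batch 1 ratio was -1.46.

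Jun (ENSMUSG00000052684), the founding JUN protein, had 567 and 554 CPM in the CD45+ plates, against 229 and 324 CPM in the CD45- ones, log2 ratios of 1.30 and 0.77. Replicate 27 of the CD45- plate of batch 2 held 43.8% of that plate's Jun reads, and the batch 2 ratio was 1.56 without it. Junb (ENSMUSG00000052837), a JUN protein that can dampen the activity of Jun itself, had 229 and 212 CPM in CD45+ plates, against 40.7 and 79.3 CPM in CD45- plates, log2 ratios of 2.47 and 1.41. For Jun and Junb both CD45+ plates were above both CD45- plates. Jund (ENSMUSG00000071076), the family member that resting cells usually make without a stimulus, had 22.3 and 37.0 CPM in CD45+ plates, against 40.5 and 22.9 CPM in CD45- plates, with log2 ratios of -0.83 and 0.67. Replicate 54 of the CD45- plate of batch 1 held 41.7% of its Jund reads and moved the batch 1 ratio to -0.10 when left out. The mean Jund ratio of both batches was -0.08 and changed sign in other settings, to 0.39 with TMM factors, 0.42 with median-of-ratios size factors and 0.57 with the mean CPM of single wells.

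Atf3 (ENSMUSG00000026628), a stress-induced factor of the ATF and CREB family that also represses inflammatory genes in macrophages, had the widest gap. Atf3 had 283 and 639 CPM in CD45+ plates, against 2.28 and 73.2 CPM in CD45- plates, with log2 ratios of 6.44 and 3.11. The CD45- plate of batch 1 held 67 Atf3 reads in all, an exact Poisson 95% interval of 1.77 to 2.90 CPM that covers counting error only. Most of the remaining CD45- signal was in single wells. Replicate 18 held 53.7% of the Atf3 reads of batch 1 and replicate 24 held 59.3% of those of batch 2, and the ratios were 7.09 and 4.35 without each.

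Egr1 (ENSMUSG00000038418), a zinc finger factor induced through serum response elements, had 399.5 and 435 CPM in CD45+ plates, against 73.7 and 223 CPM in CD45- plates. Its log2 ratios were 2.42 and 0.96, and both CD45+ plates were above both CD45- plates. Ier2 (ENSMUSG00000053560), a small nuclear protein named for its immediate early response, had 389 and 525 CPM in CD45+ plates, against 26.03 and 137 CPM in CD45- plates. The Ier2 ratios of 3.85 and 1.94 fell just short of the rule in batch 2, and Ier2 was called higher when any 1 of the CD45- wells of batch 2 with replicate number 13, 48, 57, 61 or 68 was left out. It was also called with TMM factors, with median-of-ratios size factors and with the mean CPM of single wells.

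Both genes that act as brakes were called. Dusp1 (ENSMUSG00000024190), a phosphatase that switches off the p38 and JNK kinases, had 665 and 819 CPM in CD45+ plates, against 54.7 and 105 CPM in CD45- plates, log2 ratios of 3.58 and 2.95. Zfp36 (ENSMUSG00000044786), or tristetraprolin, which binds AU-rich elements and speeds the decay of cytokine messages, had 825 and 1194 CPM in CD45+ plates, against 129 and 217 CPM in CD45- plates, log2 ratios of 2.67 and 2.45. For both genes each CD45+ plate lay above each CD45- plate. The folds were 11.95 and 7.73 for Dusp1 and 6.37 and 5.48 for Zfp36.

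Several scalings that differ in how they treat the larger number of genes lower in CD45+ were compared. The median log2 ratio over all genes, averaged over the batches, was -0.48 with CPM, -0.10 with TMM factors and -0.08 with median-of-ratios size factors. The median of the 10 genes moved along, to 2.71 and 2.74 from 2.22 with CPM. Atf3, Dusp1 and Zfp36 were called under each of these scalings, with Ier2 added by TMM factors and Ier2 and Junb by the size factors. The share of all genes called with either set of factors was not computed.

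The promoters of the 3 called genes are shown, with that of Fos, whose correlation with Zfp36 over wells is described below. Of the 10 genes, 8 were searched, with promoters taken by symbol from the RefSeq promoter table for GRCm38.p6. Egr1 and Ier2 were not searched, so the motif counts below, that of the CArG box included, leave them out. Each stretch ends at the base before the annotated start and is written 5′ to 3′ on the strand of the gene. Capitals mark TGACG, the core of the site bound by CREB and ATF proteins, on either strand, and the CArG box, the site of serum response factor.

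Fos: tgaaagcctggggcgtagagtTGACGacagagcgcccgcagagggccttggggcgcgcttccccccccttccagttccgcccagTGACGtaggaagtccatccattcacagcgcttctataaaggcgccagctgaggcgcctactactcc
Atf3: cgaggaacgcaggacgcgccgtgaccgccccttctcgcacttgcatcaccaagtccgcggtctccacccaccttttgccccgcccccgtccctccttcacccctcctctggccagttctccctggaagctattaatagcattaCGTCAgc
Dusp1: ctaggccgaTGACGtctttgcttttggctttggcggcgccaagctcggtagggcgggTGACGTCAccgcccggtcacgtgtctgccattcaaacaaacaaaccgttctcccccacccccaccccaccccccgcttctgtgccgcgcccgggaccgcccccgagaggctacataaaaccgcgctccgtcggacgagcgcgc
Zfp36: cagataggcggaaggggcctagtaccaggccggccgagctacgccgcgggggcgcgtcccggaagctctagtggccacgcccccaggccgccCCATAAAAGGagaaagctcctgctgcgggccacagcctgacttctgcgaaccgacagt

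The stretches lie at chr12:85473740-85473889 on the plus strand (Fos), and on the minus strand at chr1:191183334-191183483 (Atf3), chr17:26508473-26508672 (Dusp1) and chr7:28379229-28379378 (Zfp36). TGACG was found in the 250 bases before the start of 5 of the 8 searched genes (Fos, Fosb, Junb, Atf3 and Dusp1). It was found in 17.7% of 32817 promoter windows of that length. The full palindrome TGACGTCA, which contains TGACG on both strands, was found in Dusp1 alone of the 8 and in 1.55% of windows. A CArG box was found in Zfp36 alone of the 8, within the stretch shown, and in 1.47% of windows. Bases further than 250 before the start were not searched, so sites there would be missed. The AP-1 site TGANTCA was in 0 of the 8 and in 6.75% of windows. TATAAA was in Fos alone and in 12.4% of windows, and GGGCGG, the GC box, in 6 of the 8 and in 32.7% of windows. These matches describe letters in the windows, with both strands searched, and carry no statement on binding.

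The plate levels came from wells that differed widely. In kept wells, Atf3 ranged from 0 to 5676 CPM with a median of 27.98 in the CD45+ plate of batch 1 and from 0 to 5921 CPM with a median of 59.1 in that of batch 2. In the CD45- plates it ranged from 0 to 52.6 CPM and from 0 to 2036 CPM with medians of 0 and 2.07. Most CD45- wells thus had little or no Atf3, while the CD45+ wells ran from none to very high. Zfp36 ranged from 0 to 11311 CPM (median 268) and from 12.7 to 5556 CPM (median 904) in CD45+ wells, against 0 to 1422 (median 15.4) and 0 to 2177 CPM (median 17.9) in CD45- wells. Fos ranged from 19.4 to 12065 CPM (median 745) and from 58.4 to 27219 CPM (median 2905) in CD45+ wells, against 0 to 3275 (median 77.6) and 2.07 to 7761 CPM (median 78.05) in CD45- wells. For each of these genes the wells of the gates overlapped, and the medians of both CD45+ plates were above those of both CD45- plates.

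Dusp1 had medians of 68.2 and 295 CPM in CD45+ wells, up to 7897 and 5730 CPM, against 0 and 4.63 CPM in CD45- wells, up to 1074 and 1591 CPM. Fosb and Jund had a median of 0 CPM in every plate. A few wells held most reads of a gene. The 10 wells with the most reads held 42.2% to 76.01% of the Fos reads of a plate, and 93.5% to 97.5% of the Jund and Fosb reads. For Atf3 the 10 top wells held 86.7% and 53.8% of the reads of the CD45+ plates, against 95.5% and 96.5% of those of the CD45- plates.

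**Figure D2:**
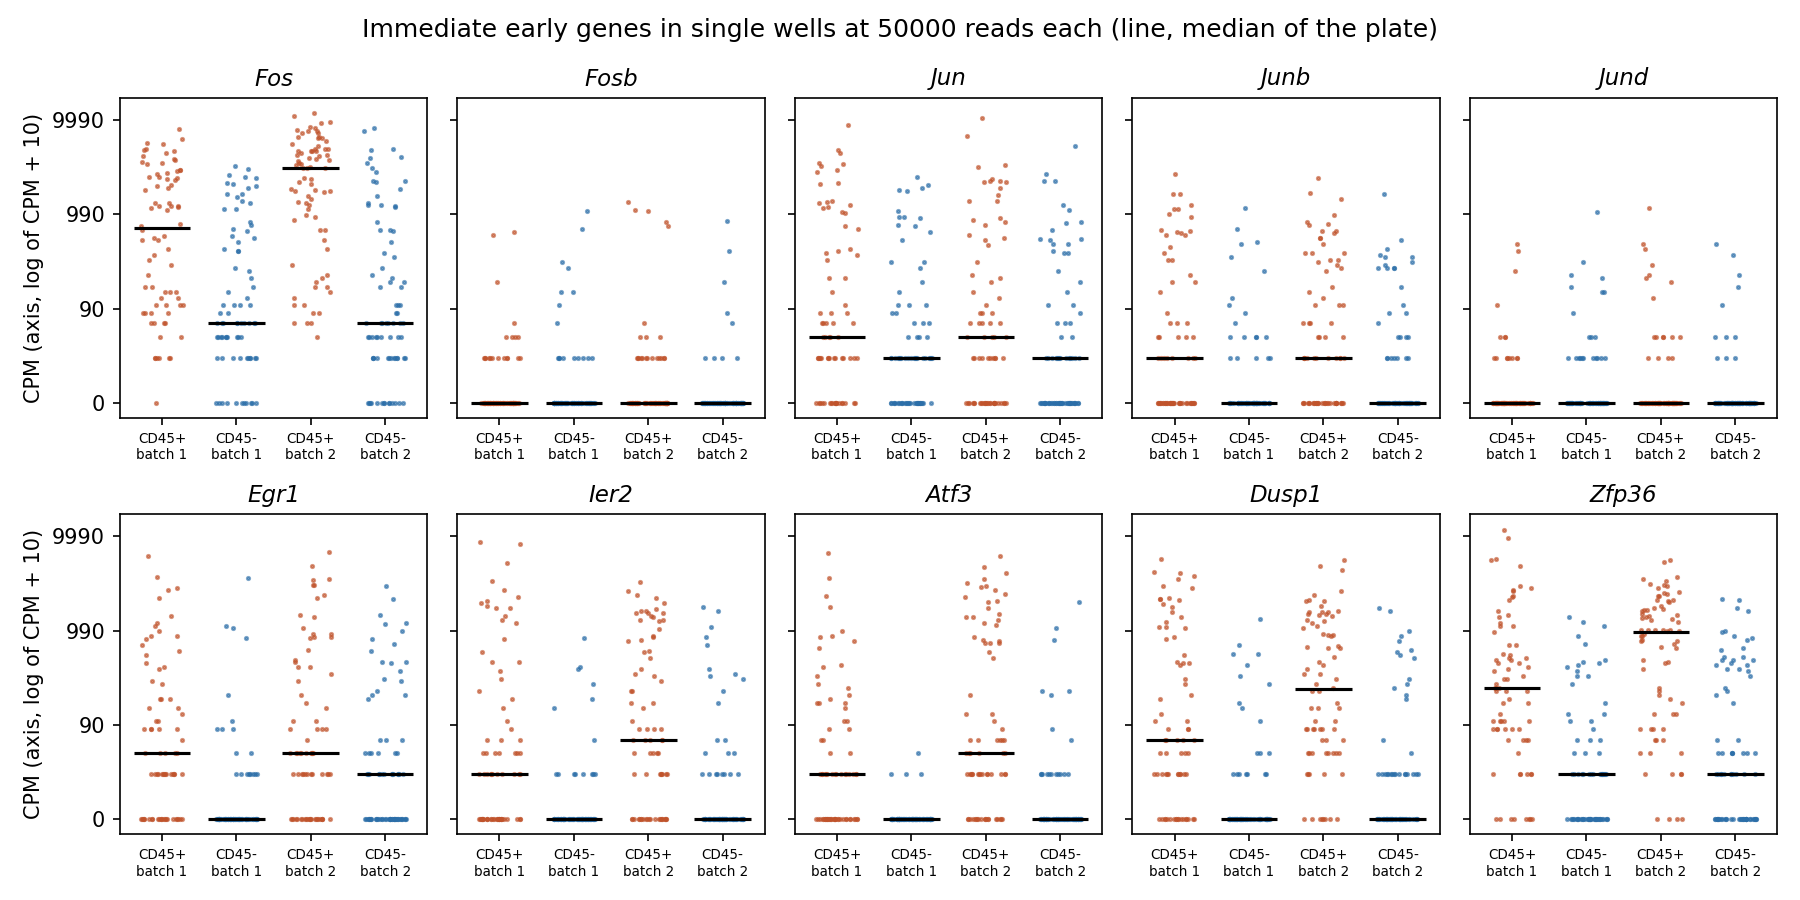
CPM of each gene in single wells thinned to 50000 reads, on a log axis of CPM + 10, with 1 point for each well and a line at the median, for 76 and 78 CD45+ wells and 79 and 82 CD45- wells. Fos and Zfp36 were spread over most CD45+ wells, while Fosb and Jund were at 0 in most wells of all plates.

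To compare wells at the same depth, each well of at least 50000 reads was thinned to 50000, which kept 76 and 78 CD45+ wells and 79 and 82 CD45- wells. At that depth Fos had a read in 75 of 76 and 78 of 78 CD45+ wells (exact binomial 95% intervals 92.9% to 99.97% and 95.4% to 100%), against 68 of 79 and 68 of 82 CD45- wells (76.5% to 92.8% and 73.02% to 90.3%). Atf3 had a read in 44 of 76 and 59 of 78 CD45+ wells (57.9% and 75.6%), against 4 of 79 and 19 of 82 CD45- wells (5.06% and 23.2%). The Atf3 intervals were 46.02% to 69.1% and 64.6% to 84.7% in CD45+, and 1.397% to 12.5% and 14.6% to 33.8% in CD45-. These intervals cover the counting of wells within a plate and are no comparison of gates. Dusp1 had a read in 58 of 76 and 70 of 78 CD45+ wells, against 20 of 79 and 32 of 82 CD45- wells, and Ier2 in 46 of 76 and 56 of 78, against 15 of 79 and 24 of 82. A single read can also be a stray from a neighbouring well, so a level of at least 100 CPM, which is 5 reads at this depth, is given as well. Zfp36 reached 100 CPM in 51 of 76 and 60 of 78 CD45+ wells, against 19 of 79 and 27 of 82 CD45- wells, and Atf3 in 22 of 76 and 31 of 78, against 0 of 79 and 6 of 82. A count of 0 of 79, taken as at most 3 wells, allows a share of up to 3.797%. Jund reached 100 CPM in 4 of 76 and 8 of 78 CD45+ wells, against 7 of 79 and 5 of 82 CD45- wells.

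Counted per well, a median of 4 and 4.5 of the 10 genes reached 100 CPM in CD45+ wells, against 1 and 2 in CD45- wells. At least 5 of the 10 reached it in 24 of 76 and 39 of 78 CD45+ wells (31.6% and 50%), against 3 of 79 and 5 of 82 CD45- wells (3.797% and 6.10%). None reached it in 4 and 3 CD45+ wells, against 19 and 22 CD45- wells. The summed level of the 10 genes ranged from 80 to 19240 CPM (median 4040) and from 160 to 26060 CPM (median 7760) in CD45+ wells, against 0 to 5080 CPM (median 780) and 0 to 15200 CPM (median 890) in CD45- wells. In both gates, then, wells with almost no reads of these genes stood beside wells with very high levels.

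**Figure D3:**
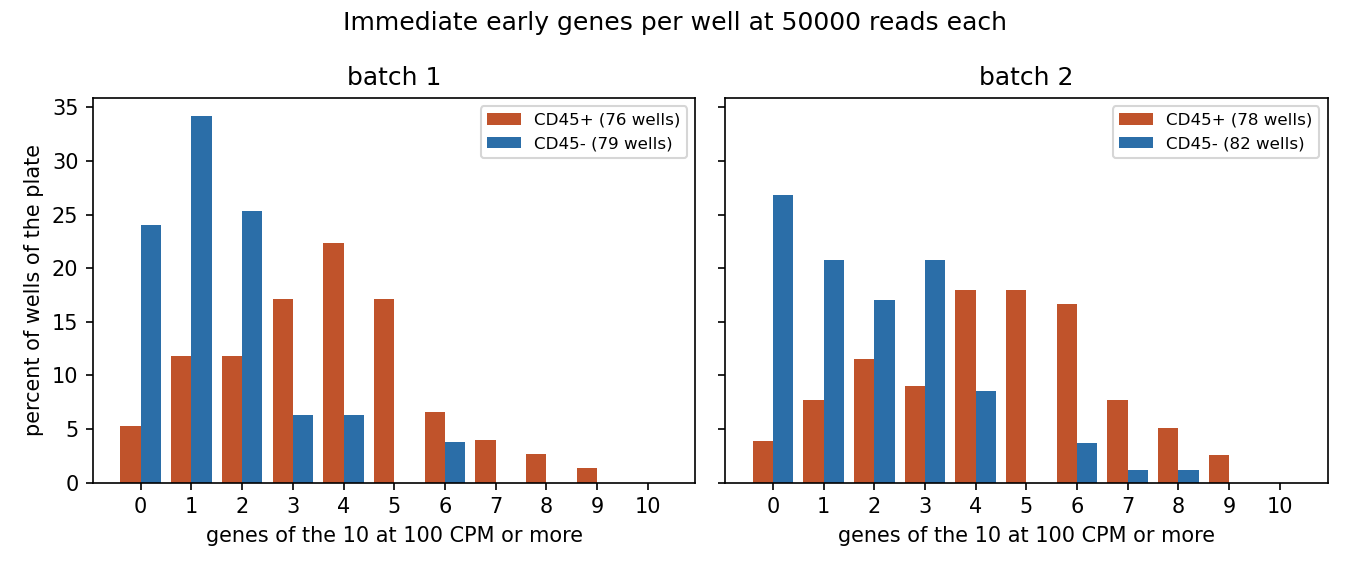
Percent of the wells of a plate (vertical axis) by how many of the 10 genes reached 100 CPM (horizontal axis) in wells thinned to 50000 reads. In CD45+ wells the median was 4 and 4.5 genes, against 1 and 2 in CD45- wells.

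Wells were next grouped by marker genes rather than by gate alone. A well was called C1q-rich where C1qa, C1qb and C1qc, subunits of complement C1q made mainly by macrophages, summed to at least 1000 CPM. It was called collagen-rich where Col1a1, Col1a2 and Col3a1 did so, and endothelial-like where 12 endothelial markers did so with at least 3 of them at 100 CPM. Wells that met more than 1 rule, 9 and 20 in the CD45+ plates and 22 and 25 in the CD45- plates, were called mixed and set aside. The cut is a level and not a boundary between types. Of C1q sums in the CD45+ plates, 13 and 6 wells lay between 1000 and 2000 CPM and 6 and 4 between 500 and 1000 CPM. Of collagen sums in the CD45- plates, 11 and 8 wells lay between 1000 and 2000 CPM and 10 and 17 between 500 and 1000 CPM. Of endothelial sums there, 13 and 8 lay in the upper range and 13 and 8 in the lower.

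C1q-rich wells (70 and 64, in the CD45+ plates) had 5739 and 9029 CPM of the 10 genes, against 1091 and 2033 CPM in collagen-rich wells (51 and 37, in the CD45- plates). Atf3, Dusp1, Zfp36 and Ier2 were higher in C1q-rich wells by the 4-fold rule and 0 were lower, against 5.58% and 15.5% of 12011 genes. With TMM factors or size factors 6 were higher, Fos and Junb being added. The share of all genes called with these factors was not computed. The median log2 ratio over all genes, averaged over the batches, moved too, from -0.47 to -0.11 and -0.08. Atf3 had 375 and 760 CPM in C1q-rich wells, against 0.413 and 19.6 CPM in collagen-rich wells, where replicate 27 held 74.2% of the reads of batch 2. The log2 ratios were 8.06 and 5.21, and 6.92 in batch 2 without that well. Ier2 had 462 and 605 CPM, against 20.8 and 121 CPM in collagen-rich wells, log2 ratios of 4.41 and 2.31, and 5.22 in batch 1 without replicate 93 of the collagen-rich wells. Dusp1 had 745 and 913 CPM, against 49.04 and 69.4 CPM, log2 ratios of 3.90 and 3.70, and 4.65 in batch 2 without collagen-rich replicate 2. Zfp36 had 1019 and 1396 CPM in C1q-rich wells, against 105 and 174 CPM in collagen-rich wells, log2 ratios of 3.27 and 2.996. Of the genes not called, Fos had ratios of 1.60 and 2.22, Junb 2.97 and 1.58, Egr1 2.52 and 0.98, Jun 1.97 and 0.48, and Jund 0.64 and 0.44. Fosb had -0.22 and 2.49. Single wells moved these values too, and Jun had 1.97 in batch 2 without collagen-rich replicate 27. In batch 1, Egr1 had 3.14 without collagen-rich replicate 4 and Junb 3.63 without collagen-rich replicate 62. Fosb in batch 1 had 0.65 without collagen-rich replicate 65 and -1.14 without C1q-rich replicate 90. With classes cut at 300 CPM, 4 genes were again called, with Junb in place of Ier2. Leukocyte markers summed to 31665 and 27033 CPM in C1q-rich wells and to 39.3 and 194 CPM in collagen-rich wells, so these classes also differ in gate and in cell type.

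A few wells crossed that pairing of class and gate. In the CD45+ plate of batch 1, 4 wells were collagen-rich, with 7524 CPM of collagen markers and 728 CPM of leukocyte markers. Their summed level of the 10 genes was 318 CPM, from 147 to 499 CPM by well, against 5739 CPM in the C1q-rich wells of the same plate. At equal depth each of the 4 had 1 of the 10 genes at 100 CPM. The single endothelial-like well of the CD45+ plate of batch 2 had 1169.6 CPM of the 10 genes, against 9029 CPM in C1q-rich wells of that plate. With so few wells these are values and no comparison of classes.

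**Figure D4:**
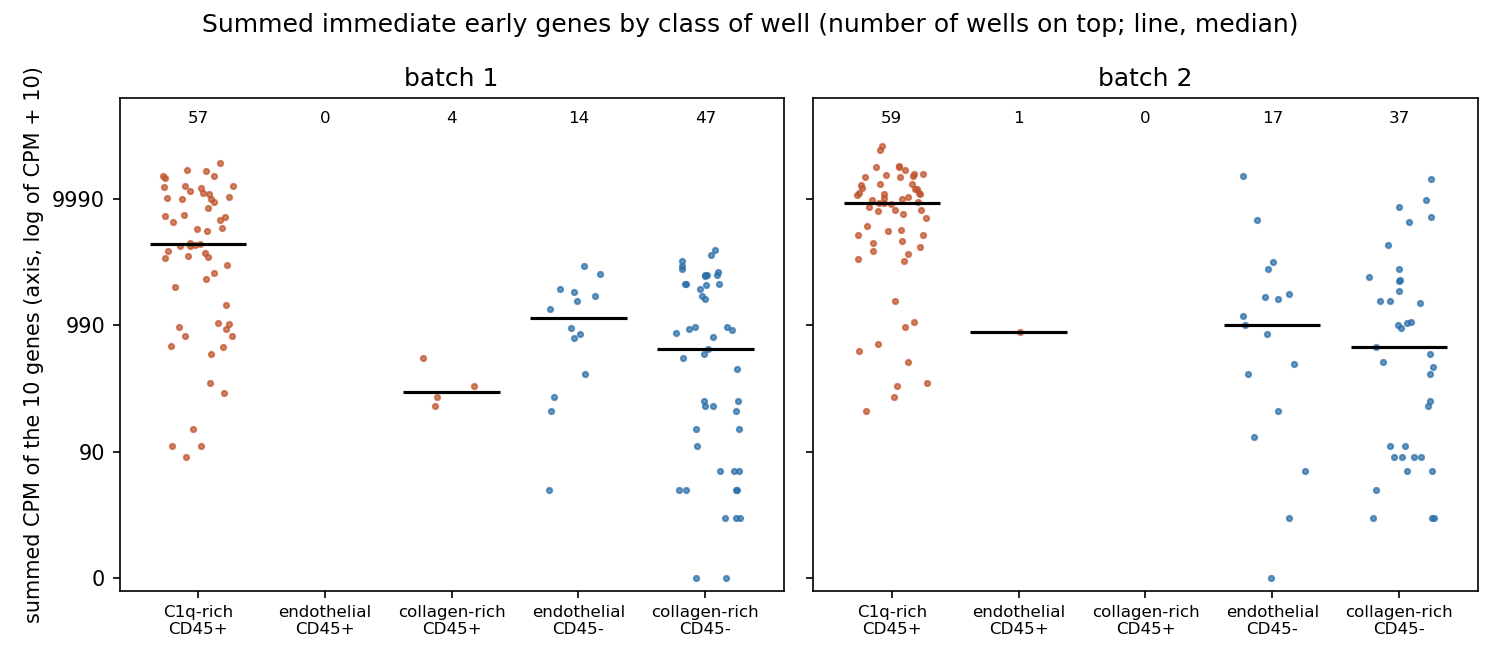
Summed CPM of the 10 genes in single wells thinned to 50000 reads, on a log axis of CPM + 10, by class and gate, with the number of wells on top and a line at the median. C1q-rich wells had medians of 4380 and 9260 CPM, and collagen-rich wells of the CD45- plates 640 and 660 CPM.

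Within the CD45- plates, endothelial-like wells (14 and 17) had 1222 and 3199 CPM of the 10 genes, against 1091 and 2033 CPM in collagen-rich wells. By the 4-fold rule 0 of the 10 genes were higher and 0 lower, against 3.57% and 14.3% of 11392 genes. The median log2 ratio of the 10 genes was -0.01 in batch 1 and 0.24 in batch 2, beside -0.44 and -0.23 over all genes. Red blood cell markers summed to 46722 and 3504 CPM in the endothelial-like wells, against 5972 and 2337 CPM in the collagen-rich wells, and their part in the ratios was not tested.

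Single wells decided much of this comparison. In batch 2, endothelial-like replicate 24 held 62.8% of the reads of the 10 genes in its class, 91.9% of Atf3 and 76.6% of Fos. That well alone had 7118 CPM of Fos, 2177 of Zfp36, 2036 of Atf3 and 1064 of Dusp1, with leukocyte markers at 53.1 CPM. Without it the batch 2 log2 ratio of Atf3 was 0.53 in place of 3.89, that of Fos -1.24 in place of 0.64, and that of Dusp1 1.14 in place of 1.99. Collagen-rich replicate 27 of the same plate held 66.01% of the Jun reads of its class, at 5633 CPM in that well, and without it the Jun ratio was 0.79 in place of -0.70. In batch 1, replicate 54 held 95.01% of the Jund reads and 88.7% of the Fosb reads of the endothelial-like wells. The Jund ratio was -1.42 without it in place of 2.56, and Fosb was then called lower.

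Fosb had 0 reads in the 17 endothelial-like wells of batch 2, against 17.4 CPM in the collagen-rich wells. A floor of 3 reads over the class gives 28.5-fold lower, which is no bound, because Fosb reads lay in few wells. Of the collagen-rich wells, 9 of 37 had a Fosb read, and replicate 27 held 35.5% of these reads. At equal depth Fosb had a read in 0 of 17 endothelial-like wells (exact binomial interval 0% to 19.5%). In collagen-rich wells it was 6 of 37 (6.19% to 32.01%), so the intervals overlapped. In batch 1 the Fosb levels were 13.01 CPM in endothelial-like and 41.9 CPM in collagen-rich wells, a log2 ratio of -1.62. Egr1 had 1.68 CPM in endothelial-like wells of batch 1, against 62.6 CPM in collagen-rich wells, while in batch 2 the levels were 287 and 298 CPM, and the ratio there was -1.24 without replicate 24 in place of -0.05. The batch 1 level in collagen-rich wells was 40.5 CPM without replicate 4, and the ratio -3.95 in place of -4.57. Ier2 had 3.36 and 75.7 CPM in endothelial-like wells, against 20.8 and 121 CPM in collagen-rich wells, and was called lower when replicate 57 of batch 2, with 68.4% of the reads of its class, was left out. Zfp36 had 143 and 594 CPM in endothelial-like wells, against 105 and 174 CPM in collagen-rich wells, and Dusp1 35.2 and 279 CPM, against 49.04 and 69.4 CPM. Without replicate 30 the batch 1 ratio was -0.19 in place of 0.45 for Zfp36, as it was without replicate 41, and -0.20 in place of 1.03 for Atf3. Without replicate 24 Zfp36 had 341 CPM in batch 2, a ratio of 0.97 in place of 1.76. Without replicate 75 Dusp1 had 14.2 CPM in batch 1, a ratio of -1.72 in place of -0.47, and in batch 2 its ratio was 2.94 without collagen-rich replicate 2. The Ier2 ratio of batch 1, -2.32, was -3.25 without replicate 69 and -1.51 without collagen-rich replicate 93. At equal depth the summed level of the 10 genes had medians of 1140 and 1000 CPM in endothelial-like wells and 640 and 660 CPM in collagen-rich wells, with ranges that overlapped almost fully.

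Between batches, batch 2 had 1.55 times the summed level of the 10 genes of batch 1 in the CD45+ gate and 1.65 times in the CD45- gate. By the 4-fold rule, here in the same direction in both gates, 0 of the 10 genes were higher in batch 2 and 0 lower, against 3.1% and 1.46% of all genes. At 2-fold 1 gene, Atf3, was higher in batch 2 and 0 were lower, against 8.34% and 4.6%. Atf3 had 639 CPM in batch 2 and 283 CPM in batch 1 in CD45+ plates (log2 ratio 1.17), and at 73.2 and 2.28 CPM in CD45- plates (4.50, or 3.26 without replicate 24 and 5.16 without replicate 18). The ratio was above 0 in both gates for 6 of the 10 genes and for 29.2% of all genes. The median log2 ratio of the 10 genes was 0.48 in CD45+ and 0.84 in CD45-, beside 0.00 and 0.11 over all genes. Both gate ratios were larger in size than both batch ratios for Fos, Jun, Junb, Dusp1 and Zfp36, and not for the other genes. The batch ratios in CD45+ and CD45- were 1.04 and 0.48 for Fos, -0.03 and 0.50 for Jun, and -0.11 and 0.95 for Junb. They were 0.30 and 0.93 for Dusp1 and 0.53 and 0.75 for Zfp36. For Jun, Junb, Fosb and Jund the batch ratios had opposite signs in the gates, though the Jun ratio in CD45- was -0.29 without replicate 27 in place of 0.50 and so had the sign of CD45+.

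Over the wells of a plate, at equal depth, the 10 genes varied together weakly. The median Spearman correlation of the 45 pairs was 0.16 and 0.22 in the CD45+ plates and 0.13 and 0.20 in the CD45- plates. The median over all pairs of 1122 genes with a read in at least 20% of the wells of each plate was 0.03 and 0.04 in CD45+ and 0.04 and 0.03 in CD45-. The 10 genes did not have to reach that limit, and Atf3 had a read in 5.06% of the CD45- wells of batch 1. Of the 45 pairs, 30 had a correlation above 0 in all 4 plates and 0 reached 0.3 in all 4. The share of all gene pairs that did so in all 4 plates was not computed. In single plates, 40 and 45 of the 45 pairs were above 0 in CD45+, against 61.4% and 63.2% of all gene pairs. In CD45- these were 37 and 43, against 62.9% and 59.2%. At 0.3 or more there were 7 and 10 pairs in CD45+ and 4 and 6 in CD45-, against 1.12% to 1.5% of all gene pairs. Wells of a plate share handling, sequencing and depth, and a correlation in sparse counts is given here as a description.

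Fos and Zfp36 gave the pair with the highest smallest value, 0.60 and 0.46 in the CD45+ plates and 0.29 and 0.30 in the CD45- plates. Dusp1 and Zfp36, the 2 brakes, gave 0.42 and 0.45, against 0.36 and 0.13. Fos and Egr1 gave 0.22 and 0.34 in CD45+ and 0.34 and 0.27 in CD45-. Fos and Jun, the classical AP-1 pair, gave 0.44 and 0.28 in CD45+, and -0.05 and 0.32 in CD45-, so they did not vary together in the CD45- plate of batch 1. Set against the mean of the other 9 genes, Fos had correlations of 0.58 and 0.57 in CD45+ wells and 0.32 and 0.42 in CD45- wells, and Jund 0.09 and 0.32, and 0.16 and 0.19.

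**Figure D5:**
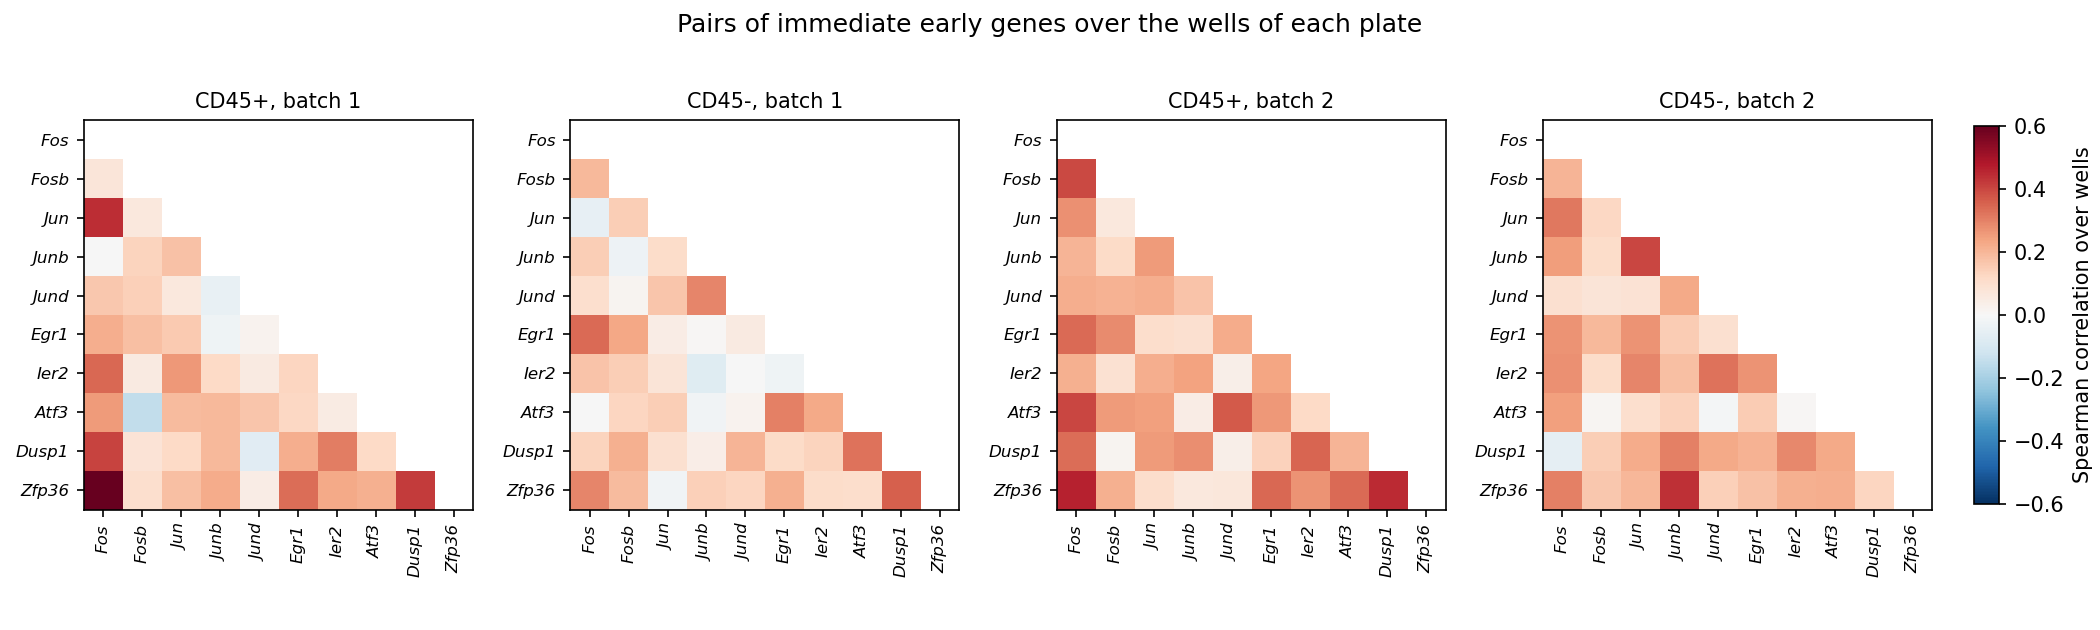
Spearman correlation over wells for the 45 pairs of genes in each plate, in wells thinned to 50000 reads. Red is above 0 and blue below. Fos and Zfp36 reached 0.60 and 0.46 in the CD45+ plates, and 0.29 and 0.30 in the CD45- plates.

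Within a class the picture was uneven. In C1q-rich wells (57 and 59 at equal depth) the median of the 45 pairs was 0.16 and 0.23. In collagen-rich wells it was -0.01 in batch 1 (47 wells), where 22 of 45 pairs were above 0, and 0.22 in batch 2 (37 wells), where 43 were. Over all pairs of the 1122 genes in the same collagen-rich wells, 59.5% and 58.1% were above 0, with medians of 0.04 and 0.04. The 2 collagen-rich plates therefore differed by more than the 4 whole plates did among themselves.

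Some properties of the wells moved with the 10 genes. The mean log level of the 10 genes had Spearman correlations with the number of genes with a read of 0.27 and 0.30 in CD45+ wells and 0.23 and 0.38 in CD45- wells. With the plate column the values were -0.28 and -0.29 in CD45+, and -0.19 and -0.04 in CD45-, and with the C1q markers 0.33 and 0.31, and 0.15 and 0.13. With mitochondrial reads they were -0.21 and -0.18 in CD45+, and 0.19 and -0.12 in CD45-, and with 14 heat shock genes -0.03 and 0.27, and 0.05 and 0.26. Their part in the levels of the 10 genes was not tested.

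Genes of the same response outside the 10 were described from lists. Of 30 other immediate early genes, 28 were measured. Of these, 3 were higher in CD45+ (Ier5, Btg2 and Maff) and 1 was lower (Klf4), against 4.33% and 12.9% of all genes. The list had median log2 ratios of 0.87 and 0.92. Btg2, an antiproliferative protein, had 1014 and 893 CPM in CD45+ plates, against 129 and 196 CPM in CD45- plates. Ier3 had 682 and 689 CPM, against 110 and 179 CPM, Ppp1r15a, which restarts translation after stress, had 490 and 665 CPM, against 78.8 and 169 CPM, and Klf6 had 246 and 582 CPM, against 126 and 265 CPM. Ier5 had log2 ratios of 2.92 and 3.37, Maff, a small MAF protein, 3.53 and 4.18, and Klf4, a zinc finger factor, -3.11 and -2.23.

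Of 18 feedback inhibitors, 17 were measured. Of these, 6 were higher in CD45+ and 3 were lower, against 4.33% and 12.9% of all genes. The list had median log2 ratios of 1.29 and 0.75. The higher ones were the kinase phosphatase Dusp2 (2.34 and 5.44), the cytokine signalling inhibitor Socs3 (3.23 and 2.20), the NF-kB regulators Nfkbid (7.33 and 6.05), Nfkbiz (2.91 and 5.28) and Tnfaip3 (2.69 and 3.05), and the Zfp36 relative Zfp36l2 (3.27 and 2.11). Dusp4 (-2.67 and -2.06), Spry4 (-3.87 and -2.59) and Socs1 (-2.74 and -2.38) were lower. Their levels were low, at 5.62 and 3.75, 14.7 and 5.23, and 5.69 and 4.38 CPM in CD45- plates. In CD45+ plates they had 0 to 0.141 CPM, so the pseudocount weighs in these ratios. Leaving out single wells was not run for genes of the lists. Nfkbia, the NF-kB inhibitor, had 1618 and 1837 CPM in CD45+ plates, against 357 and 486 CPM in CD45- plates, with log2 ratios of 2.18 and 1.92. Zfp36l1, the other relative, had ratios of 0.87 and 0.84.

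The machinery that switches these genes on was described next. Of 20 kinases and factors of induction, 0 were higher in CD45+ and 1 was lower, against 4.33% and 12.9% of all genes. The lower one was Srf, which encodes serum response factor. Srf had 0.038 and 1.62 CPM in CD45+ plates, against 14.7 and 15.02 CPM in CD45- plates. The list medians were -0.68 and -1.004. Among its most abundant members, Mapk3 had log2 ratios of 0.57 and -1.10, Crem -1.27 and 0.04, and Mkl2 -1.44 and -0.87.

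Of 14 heat shock genes, a different stress response, 0 were higher in CD45+ and 2 were lower, Hspa1a (-5.63 and -2.90) and Hspb1 (-2.59 and -2.78), with list medians of -0.44 and -0.85. The abundant chaperones Hsp90ab1 (-0.64 and -0.70), Hspa5 (0.18 and -0.78), Hspa8 (-0.23 and -0.37) and Dnajb1 (0.58 and -0.75) passed in neither direction. Of 12 inducible inflammatory genes, 11 were measured, 9 were higher in CD45+ and 0 were lower, with median log2 ratios of 5.38 and 4.83. The 9 were Il1b, Tnf, Cxcl2, Ccl2, Ccl3, Ccl4, Ptgs2, Icam1 and Cd83, and Ccl4, a chemokine of macrophages, had 11596 and 4868 CPM in CD45+ plates, against 25.7 and 24.8 CPM in CD45- plates. Cxcl1 had ratios of -1.08 and -3.30. The same counts over all genes were 4.33% higher and 12.9% lower, as above.

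Among 1012 other genes measured in enough wells, the 10 whose pattern over wells was most like the mean of the immediate early genes were ranked by the lowest of their 4 correlations within plates. They were Nfkbia, Alox5ap, Ppp1r15a, H3f3b, Il10rb, Ctsc, Wasf2, Herpud1, Trappc4 and Klf2. Nfkbia had correlations of 0.42 and 0.51 in CD45+ wells and 0.24 and 0.37 in CD45- wells, and Ppp1r15a 0.45 and 0.40, and 0.22 and 0.43. The lowest value of Klf2, the tenth, was 0.14. Over all 1012 genes, 218 had a correlation above 0 in all 4 plates and 0 reached 0.3 in all 4. Of the 8 other immediate early genes in that set, 6 were above 0 in all 4 plates, and of the 7 heat shock genes, 1 was.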

How the data were processed

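The authors deposited raw read counts, whole numbers for every gene in every well. Libraries were made with Clontech SMARTer chemistry, per the labels' protocols. The submitters' processing notes name STAR 3.0.4, Subread and featureCounts 1.4.5. Build and annotation are not given in the sources used here. No molecular identifier is mentioned, so reads are not molecules. Repeated lines of a gene, 598 of 41192 in batch 1 and 595 of 41228 in batch 2 (2.39% and 2.42% of counts), carried identical counts and were dropped.

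Wells of at least 10000 reads and 500 genes were kept (368 of 384). Plate and class levels were CPM of summed reads, ratios used a pseudocount of 1, and genes of at least 1 CPM on average formed the background. Correlations used wells thinned to 50000 reads (seeded). The genes described were all 10 members, the 4 most abundant and all called genes of each list (1 of them is not reported here), and the 10 most alike over wells. The members, lists, classes and rules were chosen with earlier results of these data known. The 4-fold rule and the ranking by likeness were tested on simulated data with known answers. The simulation did not model genes whose reads lie mostly in single wells, so it does not cover those. Python 3 with numpy 2.4.6, pandas 2.3.3 and scipy 1.17.1 was used, with edgeR 4.0.16 (R 4.3.3) for TMM factors alone. Doublets were not called, and a well that received more than 1 cell would not have been recognised. The alternatives tried were other fold limits, pseudocounts, scalings, well filters, class cuts and leaving out each well. 3 further ones, without mixed wells, without wells rich in neutrophil, T cell or B cell markers, and without replicates 24 and 27, were chosen after seeing the data.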

Additional observations from a re-analysis of the deposited data

Results flagged for a closer look

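The gate ratio of Fosb had opposite signs in the batches, with a log2 ratio of CD45+ over CD45- of -0.58 in batch 1 and 2.31 in batch 2. The same held for Jund, at -0.83 in batch 1 and 0.67 in batch 2. The difference between batches was not tested, since each batch has 1 plate for each gate.

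Reads of the 10 genes were also found in the 16 wells left out for few reads or genes, which enter no comparison. Such reads numbered 143 and 502 on the CD45+ plates, batch 1 then batch 2, and 20 and 87 on the CD45- plates. Scaled to the reads of those wells, that was 4247 and 10724 CPM in CD45+ and 943 and 3956 CPM in CD45-, while wells of at least 50000 reads had 5043 and 7788 CPM in CD45+ and 1193 and 1984 CPM in CD45-. Cells with few reads and reads carried from other wells of a plate cannot be told apart in these values.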

How the results depend on the processing

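Atf3, Dusp1 and Zfp36 were called higher in CD45+ under every planned setting, and 0 genes were lower under any. The count of 3 became 6 at 2-fold and 5 with median-of-ratios size factors, and leaving out each well in turn gave 3 to 4. Shares of all genes called were not computed with TMM or size factors, here or for the classes. The members' median log2 gate ratio, 2.22 as the mean of both batches, was 2.71 with TMM factors and 2.74 with size factors, and 2.18 to 2.32 with each well left out. For C1q-rich over collagen-rich wells the median of 2.51 became 3.05, 3.10 and 2.05 with TMM factors, size factors and the mean CPM of single wells, and was 2.43 to 2.66 with each well left out, with 4 called then and 6 with either set of factors. For endothelial-like over collagen-rich wells, 1 gene was higher and 1 lower at 2-fold, against 7.09% and 20.4% of all genes. At 4-fold, 1 was lower with classes at 3000 CPM and 0 to 1 with each well left out. In the main setting 14.3% of all genes were lower. The median there, 0.12, was 0.52 with size factors, -0.44 to 0.31 with each well left out, and -0.12 with CD45- replicates 24 and 27 of batch 2 left out. Classes at 300 CPM left 3 endothelial-like wells in a plate and were not run for that ratio. Between batches, 1 gene was higher at 2-fold, and the median of 0.66 was 0.51 to 0.71 with each well left out. The mean correlation of pairs, 0.176, was 0.155 to 0.164 with other depths or Pearson correlation and 0.166 to 0.182 with each well left out. Settings without mixed wells, without 25 and 10 CD45+ wells of neutrophil, T cell or B cell markers, and without replicates 24 and 27 were chosen after seeing the data, and each left 3 genes called by gate. No paired analysis was possible because no result comes from a test, and the gate ratios are already taken within each batch. The median well had 0 reads of Fosb and Jund in each plate, and also of Junb, Ier2, Atf3 and Dusp1 in the CD45- plate of batch 1.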

Other observations

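Counting how the reads were divided among the 10 genes, Fos held 32.2% and 42.5% of them on the CD45+ plates, batch 1 then batch 2, and 47.04% and 39.8% in the CD45- plates. Dusp1 held 13.2% and 10.5% in CD45+ plates and 4.55% and 5.30% in CD45- plates, and Zfp36 16.4% and 15.3%, and 10.7% and 10.97%. Jun held 11.3% and 7.11% in CD45+ plates and 19.04% and 16.3% in CD45- plates. These shares depend on gene length and describe reads, not molecules.

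Among CD45- wells of batch 2, replicate 24, an endothelial-like well, and replicate 27, a collagen-rich well, each had 8 of the 10 genes at 100 CPM or more. Fos had 7118 CPM in replicate 24 and 1346 CPM in replicate 27. Jun had 493 CPM in replicate 24 and 5633 CPM in replicate 27, and Dusp1 had 1064 and 2.50 CPM. The summed level of the 10 genes was 14595 CPM in replicate 24 and 9772 CPM in replicate 27. C1q markers summed to 78.2 CPM in replicate 24 and 10.01 CPM in replicate 27, and leukocyte markers to 53.1 and 522 CPM. Endothelial markers summed to 5019 and 1026 CPM, and collagen markers to 484 and 12291 CPM.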
